A study of Mus musculus with 24 samples.

Results

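The comparison covered 16 of 24 mouse tumours from a study of pancreatic ductal adenocarcinoma (PDAC), chosen by the level of 8 epithelial transcripts. For every tumour a score was taken as the mean of Epcam, Krt8, Krt18, Krt19, Cdh1, Cldn3, Cldn4 and Cldn7 on the log2 scale, each minus its own mean over the 24 tumours. The 8 tumours with the highest score and the 8 with the lowest score were then compared across all other genes, and the 8 tumours between them were set aside. RNA of whole tumour tissue had been hybridised to Clariom S arrays, which carry probes for most protein-coding genes. The study had 4 groups of 6 tumours. Controls received vector, the second group received BMS754807, a kinase inhibitor of the receptors for insulin-like growth factor and insulin, the third received hydroxychloroquine, which blocks the lysosomal end of autophagy, and the last received both agents (the combination). Strain, tumour model, tumour site, age, doses and treatment times were not given in the sources used here. Nor do the labels say whether each tumour is from its own animal. An error or p therefore measures only how these samples spread.

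Ductal cells of the pancreas are held together by tight junctions, adherens junctions and desmosomes, and their apical and basal sides are kept apart by polarity complexes. Claudins and occludin seal the tight junction, E-cadherin (Cdh1) carries the adherens junction, Epcam is an adhesion protein of epithelial surfaces, and keratins 8, 18 and 19 form the filaments of simple epithelium. Pancreatic tumours mix such cells with fibroblasts, vessels and leukocytes, and tumour cells can also lower their junction genes while staying keratin-positive. In RNA of whole tissue, fewer cells of a type and less RNA per cell cannot be told apart.

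The high-score tumours were BMS754807 tumours 1 and 3, combination tumours 2, 3, 4 and 6, control tumour 1 and hydroxychloroquine tumour 3, with scores from 0.24 to 0.90 and a median of 0.58. The low-score tumours were BMS754807 tumours 5 and 6, control tumours 4 and 5, hydroxychloroquine tumours 1, 4 and 5 and combination tumour 1, with scores from -0.99 to -0.14 and a median of -0.75. At the upper edge, combination tumour 2 (0.24) was the last one inside and control tumour 3 (0.19) the first one outside. At the lower edge, hydroxychloroquine tumour 1 (-0.14) was inside and control tumour 6 (-0.12) outside. The gaps at the edges were 0.05 and 0.02, so tumours on either side of an edge had nearly the same score.

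**Figure D1:**
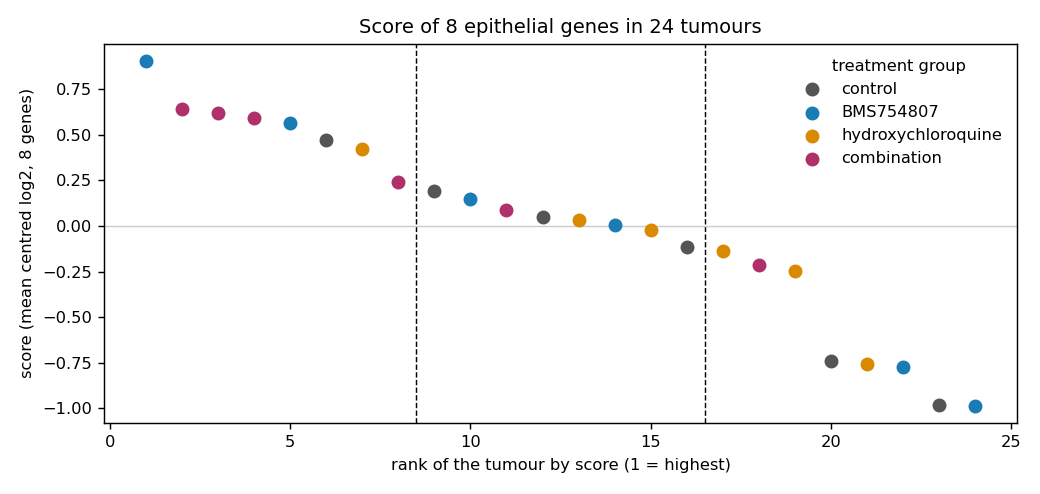
Score of the 8 epithelial genes (vertical axis, mean centred log2) in the 24 tumours, ordered from highest to lowest (horizontal axis) and coloured by treatment group. Dashed lines mark the 8 highest and the 8 lowest tumours; 4 of the 8 highest are combination tumours and 3 of the 8 lowest are hydroxychloroquine tumours.

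Every treatment group had at least 1 tumour in each class. The score had a median of -0.04 in control tumours (range -0.98 to 0.47), 0.08 under BMS754807 (-0.99 to 0.90), -0.08 under hydroxychloroquine (-0.76 to 0.42) and 0.42 in the combination (-0.22 to 0.64). The ranges of the 4 groups overlapped. Because the combination supplied 4 high-score tumours and 1 low-score tumour, treatment group was kept as a term in every test below unless stated.

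The choosing genes themselves are given as a description, with no test, since they selected the tumours. They did not move together. Epcam had a log2 signal of 13.85 to 14.92 in the high-score tumours (median 14.65) and of 10.68 to 13.52 in the low-score tumours (median 12.30). Cldn4, which encodes a tight junction claudin, ran from 8.57 to 10.21 (median 9.24) against 4.33 to 7.54 (median 6.38). These 2 genes separated the classes with no overlap. Cldn3 lay at 8.20 to 9.45 (median 9.08) against 6.22 to 8.26 (median 6.83), and only combination tumour 1 reached into the high-score range. Cldn7 lay at 8.29 to 9.40 (median 8.77) against 6.81 to 8.18 (median 7.10). With treatment group in the model the differences were 2.60 for Epcam, 1.81 for Cldn3, 2.96 for Cldn4 and 1.44 for Cldn7 on the log2 scale.

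The keratins gave another picture. Krt8 was at 15.97 to 16.65 (median 16.28) in the high-score tumours and at 16.09 to 16.50 (median 16.21) in the low-score tumours, a difference of 0.02. Krt18 differed by 0.05 and Krt19 by -0.02, and both classes overlapped across almost their whole range. In hydroxychloroquine tumour 3 of the high-score class, Krt8 was 15.97, the lowest value of the 24 tumours. In BMS754807 tumour 5, which had the lowest score of all, Krt19 was 15.94, the highest value of the 24. Cdh1 lay between these patterns, at 16.36 to 16.68 against 15.92 to 16.31, a difference of 0.35 with no overlap. Averaged over the 24 tumours, Krt8, Krt18, Krt19 and Cdh1 stood at the 99.3rd, 99.2nd, 98.4th and 99.3rd percentile of all genes on these arrays. Epcam and the 3 claudins carried 94.9% of the score difference between the classes, and the 3 keratins carried 1.64%.

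The name epithelium-rich is therefore not borne out by the keratins, and the 2 classes are called high-score and low-score tumours here. Ranking the tumours on Krt8, Krt18 and Krt19 alone placed 3 of the 8 high-score tumours among the highest 8 and 2 of them among the lowest 8. Of the 8 low-score tumours, that ranking kept 3 among the lowest 8 and put 2 among the highest 8. A ranking on the other 5 genes (Epcam, Cdh1 and the 3 claudins) gave the same 16 tumours. Of the ductal markers outside the score, Krt7 and Sox9 did not pass. Krt7 was at 16.78 to 17.18 against 16.35 to 16.91, a difference of 0.28 ± 0.11 (SE, 8 against 8; limma adjusted p = 0.245). The Krt7 difference was small, yet within each of the 4 treatment groups every high-score tumour lay above every low-score tumour. Each group holds few tumours, and the share of all genes with this separation was not counted. Sox9, the transcription factor of ductal cells, was at 14.77 to 15.58 against 14.90 to 15.38 (0.12 ± 0.12, limma adjusted p = 0.703).

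**Figure D2:**
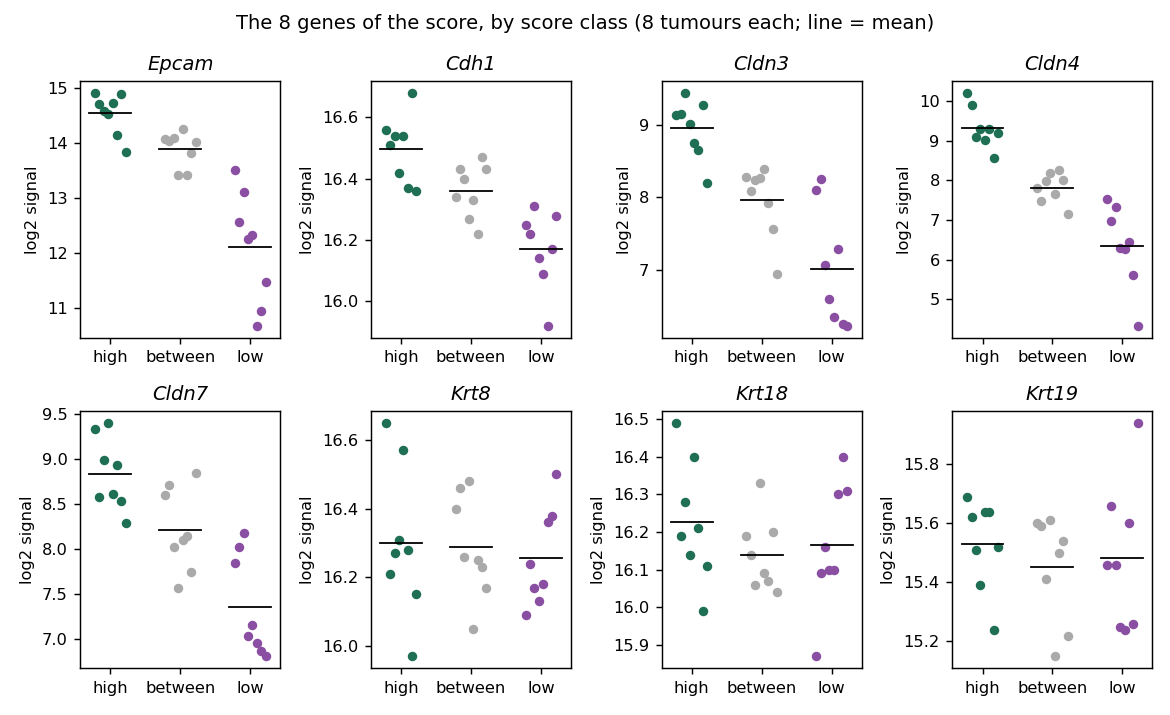
Log2 signal (vertical axis) of the 8 genes of the score in the high-score, between and low-score tumours (8 points each, horizontal line at the mean). Epcam, Cldn3, Cldn4 and Cldn7 step down from class to class, while Krt8, Krt18 and Krt19 sit at 15.15 to 16.65 in all 24 tumours.

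Start-site windows of 6 of the 8 choosing genes were found in a RefSeq table (build GRCm38.p6, mouse), and they are printed to show a letter string that stands in 6 of their 7 windows. The window left out is a further start of Cldn7, at chr11:69964529-69964828 (+), which does not hold it. Each window holds 250 bases before and 50 bases after the annotated start, 5′ to 3′ on the gene's strand. Capitals mark CACCTG on either strand (CAGGTG when read on the other), the E-box to which the ZEB and SNAI repressors are known to bind. The windows are Epcam at chr17:87635729-87636028 (+), Cldn3 at chr5:134985964-134986263 (+), Cldn4 at chr5:134946885-134947184 (-), Cldn7 at chr11:69965171-69965470 (+), Krt8 at chr15:102004293-102004592 (-) and Krt18 at chr15:102027966-102028265 (+).
Epcam: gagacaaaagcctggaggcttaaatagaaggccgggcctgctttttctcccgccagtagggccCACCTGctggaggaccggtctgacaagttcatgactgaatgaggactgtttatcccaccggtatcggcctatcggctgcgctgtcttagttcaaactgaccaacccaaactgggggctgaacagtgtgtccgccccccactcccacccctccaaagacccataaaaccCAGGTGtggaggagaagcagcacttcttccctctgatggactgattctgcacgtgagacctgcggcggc
Cldn3: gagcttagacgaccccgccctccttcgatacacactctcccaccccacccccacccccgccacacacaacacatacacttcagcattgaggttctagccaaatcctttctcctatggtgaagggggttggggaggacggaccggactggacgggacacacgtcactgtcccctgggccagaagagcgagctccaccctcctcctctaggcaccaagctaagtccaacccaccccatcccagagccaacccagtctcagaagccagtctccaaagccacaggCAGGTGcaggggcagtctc
Cldn4: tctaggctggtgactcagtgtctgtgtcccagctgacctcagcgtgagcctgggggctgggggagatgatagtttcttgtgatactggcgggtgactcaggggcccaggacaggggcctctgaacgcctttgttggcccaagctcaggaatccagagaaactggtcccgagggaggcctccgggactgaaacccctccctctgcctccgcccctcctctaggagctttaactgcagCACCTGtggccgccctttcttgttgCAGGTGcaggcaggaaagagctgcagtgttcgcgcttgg
Cldn7: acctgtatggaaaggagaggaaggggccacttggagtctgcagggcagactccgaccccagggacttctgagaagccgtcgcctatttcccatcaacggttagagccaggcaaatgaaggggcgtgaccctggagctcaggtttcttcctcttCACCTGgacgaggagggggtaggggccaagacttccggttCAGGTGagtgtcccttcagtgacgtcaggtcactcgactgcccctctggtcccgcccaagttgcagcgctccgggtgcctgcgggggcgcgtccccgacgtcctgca
Krt8: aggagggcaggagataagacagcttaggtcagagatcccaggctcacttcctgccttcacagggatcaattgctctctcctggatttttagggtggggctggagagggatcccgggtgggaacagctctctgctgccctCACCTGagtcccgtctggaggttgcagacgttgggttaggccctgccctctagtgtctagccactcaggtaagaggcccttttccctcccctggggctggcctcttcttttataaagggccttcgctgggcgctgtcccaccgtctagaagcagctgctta
Krt18: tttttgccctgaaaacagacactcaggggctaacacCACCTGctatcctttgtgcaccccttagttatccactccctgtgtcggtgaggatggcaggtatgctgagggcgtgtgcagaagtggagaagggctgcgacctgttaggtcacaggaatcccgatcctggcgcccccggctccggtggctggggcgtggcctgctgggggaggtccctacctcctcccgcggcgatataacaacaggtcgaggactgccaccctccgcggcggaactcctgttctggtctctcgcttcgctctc

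The Epcam window holds the string 187 and 19 bases before the start, the Cldn4 window 14 bases before and 11 bases after it, and the Cldn7 window 97 and 57 bases before it. Cldn3 has it 31 bases after the start, Krt8 111 bases before and Krt18 214 bases before. The string thus stands beside genes whose signal differed between the classes and beside 2 keratins whose signal did not. Among the genes called higher in the high-score tumours (below), 50 had a window and 34 of them (68%) held CACCTG, against 3468 of 15685 (22.1%) of the genes tested that had a window. Counted by window, to allow for genes with several starts, the shares were 60.3% and 19.7%. Of the genes called lower, 7 of 23 (30.4%) held it. The median GC content of the windows was 59% for the genes called higher, 49% for those called lower and 57% for the genes tested.

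Of the genes called higher that are named here and had a window, Map7, Sfn, Tmem184a, Tc2n, Car9, Rab25, Ocln, Muc1, Foxa1 and Pigr held the string in each window. Itgb6 and Slc4a4 each had 1 window with it and 1 without. Cgn, Spint1 and Jun did not hold it. Another E-box, CAGCTG, was found in 20% of the genes called higher and 18% of the genes tested. The AP-1 string TGACTCA was in 12% against 5.51%, and TGANTCA, which contains it, in 14% against 8.35%. The TEAD string CCATTCC was in 12% against 4.91%, and the grainyhead string AACCGGTT in 0 of 50 against 0.21%. All 6 strings were searched on both strands, they were chosen after the results were known, and the shares are a description of letters in these windows.

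Across the genome, 19497 genes were tested for a difference between the 8 high-score and 8 low-score tumours, with treatment group in a limma model. At an adjusted p under 0.05, 74 genes (0.380%) were higher in the high-score tumours and 29 (0.149%) were lower. These genes sat on the same arrays as the 8 that chose the tumours, so a call measures how closely a transcript followed the choosing genes and is no repeat of the choice in other samples. Differences of the 74 ran from 0.58 to 3.52 (median 1.51) and those of the 29 from -1.95 to -0.55 (median -1.41). At an unadjusted p under 0.05, 6.87% of all genes were higher and 7.52% were lower, and the median difference over all genes was 0.00. The 8 tumours between the classes took no part in the fit. Their mean lay between the class means for 70 of the 74 genes and for 29 of the 29. The counts rested on few tumours. Without the 4 low-score tumours rich in skeletal muscle transcripts, limma called 0 genes in either direction (909 higher and 1123 lower at an unadjusted p under 0.05, smallest adjusted p 0.0588). Without hydroxychloroquine tumour 3 it called 3 higher and 0 lower. The other hydroxychloroquine tumours of that fit were all low-score and no longer entered the difference. With tumours ranked on Krt8, Krt18 and Krt19 limma called 0 either way (383 higher and 543 lower at an unadjusted p under 0.05). That ranking put BMS754807 tumours only in the high class, and hydroxychloroquine and combination tumours only in the low class. With treatment group as a term, the difference came from control tumours 1, 2 and 3 against control tumours 4 and 6. This fit therefore cannot show whether the calls hold under a keratin ranking. Between those control tumours 64 of the 74 and 29 of the 29 genes had the same sign. The S100a14 difference was 0.99 there, and the Esrp1 difference was -0.28. The calls named below are those of the 16 tumours, and their number rests on few tumours.

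S100a14, a calcium-binding protein of the S100 family found in epithelia, followed the score most closely. Its log2 signal was 8.55 to 9.52 (median 9.19) in the high-score tumours and 5.73 to 6.86 (median 6.39) in the low-score tumours. The lowest high-score tumour, combination tumour 2, was 8.55, above every one of the 8 low-score tumours. The difference was 2.93 ± 0.21 (SE, 8 against 8), or 7.62-fold, with a limma adjusted p of 2.57e-05, and the tumours between ran from 6.74 to 8.46. Tc2n lay at 8.25 to 9.85 against 5.62 to 7.63 (2.60 ± 0.29, limma adjusted p = 0.0032). Sfn, which encodes the epithelial 14-3-3 protein sigma, lay at 8.10 to 9.04 against 5.66 to 7.38 (1.84 ± 0.24), and Itgb6, the beta subunit of the epithelial integrin that activates latent TGF-beta, at 8.99 to 9.82 against 6.71 to 8.21 (1.87 ± 0.25). None of these 4 genes overlapped between the classes. Map7, a microtubule-binding protein (1.67 ± 0.21), and Tmem184a (2.34 ± 0.31) overlapped by 1 or a few tumours. All 10 genes with the smallest p among those higher had every high-score tumour above every low-score tumour within each of the 4 treatment groups. They were picked by p from a fit with treatment group as a term, and each group holds few tumours. This separation within groups therefore follows largely from the choice and is no further support. Over all genes tested, 48 (0.246%) had the 8 high-score tumours above the 8 low-score tumours without overlap, and 25 of the 74 called genes were among them.

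Junction and polarity genes held 7 calls among 31 measured members, the highest number of any list. All 7 were higher, against 0.380% of all genes, and 26 were higher at an unadjusted p under 0.05, against 6.87%. The median difference was 0.73. Cgn, which encodes cingulin of the tight junction plaque, was at 11.05 to 11.74 (median 11.29) against 9.56 to 10.71 (median 10.04), with no overlap, a difference of 1.31 ± 0.17 (SE) and a limma adjusted p of 0.0063. Ocln (occludin) was at 8.65 to 11.10 against 6.94 to 9.46 (2.22 ± 0.38, limma adjusted p = 0.026). Cldn23 was at 5.86 to 6.95 against 3.92 to 5.46 (1.60 ± 0.26), again with no overlap. The small GTPase Rab25, which works in apical recycling, differed by 1.15 ± 0.17, and the polarity gene Llgl2 by 1.09 ± 0.20. The desmosomal genes that passed were Dsc2 (1.65 ± 0.30) and Pkp1 (1.34 ± 0.25). The mean score of the list was 0.10 to 0.58 in the 8 high-score tumours and -0.89 to -0.04 in the 8 low-score tumours, so the classes did not overlap. Members that did not pass even the unadjusted threshold were Pkp2 (0.36), Tjp1 (0.21), Myo5b (0.22), Cldn1 (-0.21) and Cldn2 (0.03).

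Esrp1, the splicing regulator that sets epithelial exon choice, was among the 10 genes with the smallest p. It was at 4.80 to 8.69 (median 6.94) in the high-score tumours and at 2.50 to 4.17 (median 3.55) in the low-score tumours, a difference of 3.52 ± 0.48 (SE) with a limma adjusted p of 0.0063. The high-score values were widely spread (SD 1.26), and no low-score tumour reached the lowest of them. The low-score values lay around the first quartile of the arrays (3.56 to 3.77), where signal holds little beyond background, so the size of the difference is uncertain. Its relative Esrp2 was at 11.59 to 12.29 against 10.36 to 11.68 (0.80 ± 0.20) and did not pass (limma adjusted p = 0.0873). Of the 14 measured epithelial transcription and splicing factors, Esrp1 alone passed, against 0.380% of all genes called higher. The transcription factors Elf3 (0.66 ± 0.20, limma adjusted p = 0.144) and Foxq1 (0.41 ± 0.14, limma adjusted p = 0.188) did not, and Grhl2, which drives junction genes in epithelia, had a difference of 0.06.

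Membrane-anchored serine proteases and their inhibitors were a small group with a median of 0.57. Of 10 measured genes, 3 were called higher, against 0.380% of all genes. St14, which encodes matriptase, was at 6.68 to 8.82 (median 7.99) against 4.15 to 7.24 (median 5.05), a difference of 2.96 ± 0.40 (SE, limma adjusted p = 0.0063). The classes overlapped through control tumour 1 (6.68) and hydroxychloroquine tumour 1 (7.24). Spint1, the matriptase inhibitor HAI-1, was at 8.68 to 10.33 against 7.65 to 9.17 (1.53 ± 0.24, limma adjusted p = 0.0165). Tmprss4, a further protease of this family, differed by 2.02 ± 0.36 (limma adjusted p = 0.0331). Both the protease and its inhibitor were thus higher in the same tumours. Serpinb5 (1.20 ± 0.37) did not pass, with a limma adjusted p of 0.149.

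**Figure D3:**
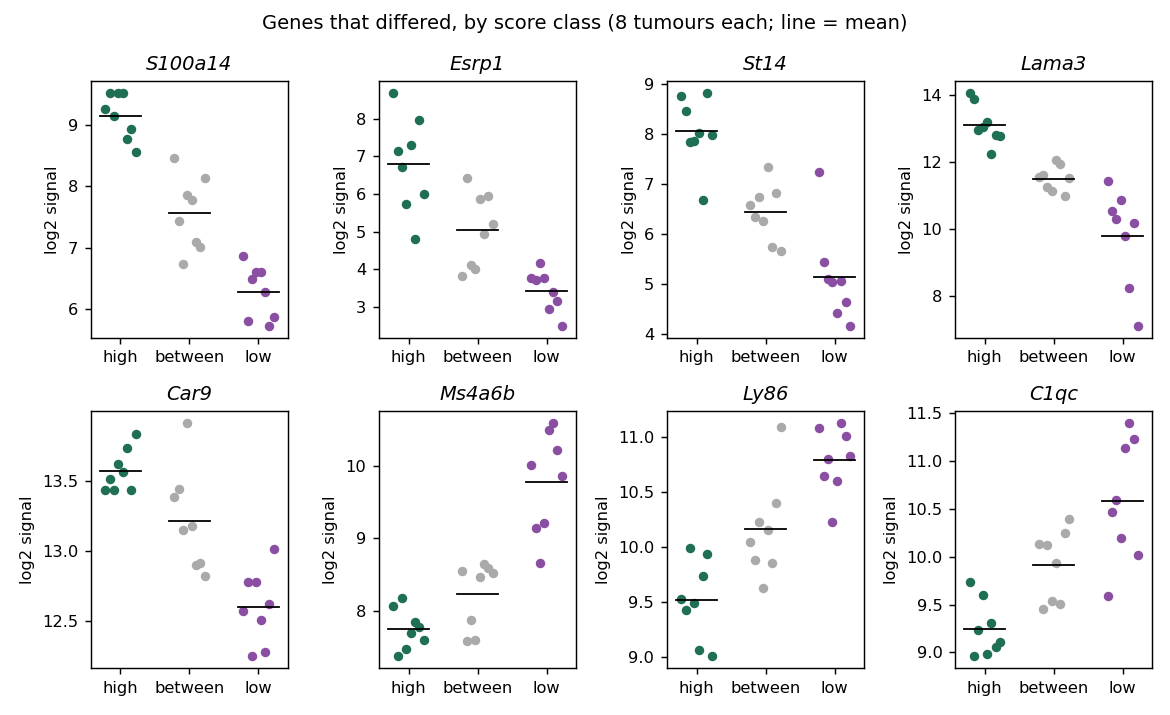
Log2 signal (vertical axis) of 5 genes called higher and 3 called lower, in the high-score, between and low-score tumours (8 points each, line at the mean). S100a14 runs from 8.55 to 9.52 in the high-score tumours and from 5.73 to 6.86 in the low-score tumours; Ms4a6b runs the other way, from 7.37 to 8.18 against 8.66 to 10.60.

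Among mucin, trefoil and gastric-type genes, 3 of 24 measured were called higher, against 0.380% of all genes, with a median of 0.60. At an unadjusted p under 0.05, 9 were higher, against 6.87% of all genes, and none was lower. Tff2, a trefoil peptide secreted by gastric gland mucous cells, was at 6.86 to 10.94 (median 9.59) against 5.22 to 8.84 (median 7.19), a difference of 3.04 ± 0.56 (SE, limma adjusted p = 0.0335). Muc1, a membrane mucin of ductal cells, was at 14.48 to 15.87 against 12.08 to 14.68 (1.95 ± 0.36, limma adjusted p = 0.0335). Slc4a4, the bicarbonate transporter of pancreatic ducts, was at 12.69 to 13.35 against 11.91 to 12.64 (0.76 ± 0.15, limma adjusted p = 0.0374), with no overlap. The Tff2 difference was 3.83 within the controls, 4.99 under BMS754807, 1.78 under hydroxychloroquine and 1.12 in the combination. Muc4 (1.49 ± 0.32) narrowly missed the threshold, with a limma adjusted p of 0.0596.

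Of 16 ductal and foregut transcription factors, 1 passed, against 0.380% of all genes called higher. Foxa1, a pioneer factor of foregut endoderm, was at 7.47 to 8.66 against 5.26 to 7.68 (1.48 ± 0.30, limma adjusted p = 0.0477). Gata4 (0.76 ± 0.31), Foxa3 (0.49 ± 0.20) and Onecut2 (0.36 ± 0.11) did not pass, with limma adjusted p values of 0.281, 0.273 and 0.161. Pdx1 had a difference of -0.29. The list median was 0.24. Of 13 keratins outside the score none passed, and the median was 0.21. Krt20, a keratin of gastrointestinal surface cells, reached 11.17 in 1 high-score tumour and differed by 1.73 ± 0.52 (limma adjusted p = 0.144), with a difference of 4.08 under BMS754807 and of 0.38 in the combination. Krt14, a basal keratin, differed by 1.33 ± 0.52 (limma adjusted p = 0.251).

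Among laminins and other basement membrane genes, Lama3 alone was called. Lama3, the alpha chain of laminin-332 in epithelial basement membrane, was at 12.23 to 14.07 (median 13.00) in the high-score tumours and at 7.11 to 11.43 (median 10.23) in the low-score tumours. Every high-score tumour was above every low-score tumour, and the difference was 3.40 ± 0.54 (SE), or 10.5-fold, with a limma adjusted p of 0.0169. Lamb3, the beta chain of the same trimer, was at 11.56 to 13.19 against 10.60 to 11.61 (1.01 ± 0.27), short of the threshold at a limma adjusted p of 0.105. Lama4, an alpha chain of vessel basement membrane, was at 10.07 to 11.06 against 10.60 to 12.89 (-0.87 ± 0.36, limma adjusted p = 0.274). Over the 20 measured basement membrane genes 1 was called, against 0.380% of all genes called higher, and the median was 0.02. At an unadjusted p under 0.05, 2 were higher and 2 lower. A pattern by laminin chain was not tested.

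Car9, the cell-surface carbonic anhydrase induced by hypoxia, was at 13.43 to 13.83 (median 13.54) against 12.25 to 13.01 (median 12.60), a narrow range in both classes with no overlap. The difference was 0.91 ± 0.13 (SE, limma adjusted p = 0.0070). It was the 1 call among 20 measured glycolysis and hypoxia genes. Of all genes, 0.380% were called higher and 6.87% were higher at an unadjusted p under 0.05. Another 7 were at an unadjusted p under 0.05, all upward, among them the prolyl hydroxylase gene Egln3 (0.73 ± 0.22), the glucose transporter Slc2a1 (0.60 ± 0.18) and Vegfa (0.51 ± 0.14), with limma adjusted p values of 0.144, 0.139 and 0.112. The list median was 0.25, while the glycolytic enzymes Pkm, Gapdh and Ldha had differences of 0.01, -0.04 and 0.08.

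Most called genes belonged to none of the lists, 57 of the 74 higher and 27 of the 29 lower. Genes outside the lists and the 10 smallest p were named here after their values were seen. Among those higher were Mal2, a protein of apical transport (3.09 ± 0.55), Pigr, the polymeric immunoglobulin receptor that carries IgA across epithelium (2.65 ± 0.45), Fut2, a fucosyltransferase of mucosal glycans (1.96 ± 0.35), the neutrophil-attracting chemokine Cxcl5 (1.93 ± 0.35) and the transcription factor Jun (0.58 ± 0.11). Cxcl5 was at 10.80 to 12.51 against 8.36 to 10.62, with no overlap. Pigr was at 3.01 to 6.44 against 2.26 to 3.28. Its low-score values lay below the first quartile of the arrays (3.56 to 3.77), so the size of its difference is uncertain.

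Several of the 29 genes that were lower in the high-score tumours are known from macrophages and other myeloid cells, though only 2 of the 29 stood in the lists. Ms4a6b had the smallest p of them, at 7.37 to 8.18 (median 7.73) in the high-score tumours and 8.66 to 10.60 (median 9.94) in the low-score tumours. No tumour overlapped, and the difference was -1.95 ± 0.28 (SE, limma adjusted p = 0.0102). Ly86, the MD-1 partner of an innate receptor, was at 9.01 to 9.99 against 10.23 to 11.13 (-1.20 ± 0.19, limma adjusted p = 0.0169), also with no overlap. Ms4a7 was at 8.79 to 9.76 against 9.98 to 11.80 (-1.45 ± 0.27), and Pld4, a lysosomal nuclease of myeloid cells, at 8.01 to 9.28 against 9.46 to 11.31 (-1.43 ± 0.27). Also lower were the transcription factor Mef2c (-0.99 ± 0.18), the leukocyte chromatin protein Sp140 (-0.85 ± 0.15), the ectonucleotidase Entpd1 (-1.19 ± 0.22), the leukocyte integrin activator Fermt3 (-1.33 ± 0.25), the cytokine receptor Lifr (-0.55 ± 0.10) and Calhm2 (-1.16 ± 0.22). Of all genes tested, 27 (0.138%) had the 8 high-score tumours below the 8 low-score tumours, and 11 of the 29 called genes were among them.

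In the macrophage marker list 13 of 14 measured genes had a negative difference, with a median of -1.08. Of these, 2 passed (Ms4a7 and C1qc), against 0.149% of all genes, and 12 were at an unadjusted p under 0.05, against 7.52%. C1qc, a chain of complement C1q made by tissue macrophages, was at 8.96 to 9.74 (median 9.17) against 9.59 to 11.40 (median 10.53), a difference of -1.34 ± 0.28 (SE, limma adjusted p = 0.0477). The general macrophage markers Adgre1 (-1.41 ± 0.32) and Csf1r (-1.47 ± 0.34) missed the threshold, with limma adjusted p values of 0.0672 and 0.0717. Cd14 was the exception in direction, at 0.21. Further called genes outside the lists were Folr2 (-1.61 ± 0.31), the chemokine Ccl8 (-1.90 ± 0.37), Aif1 (-1.37 ± 0.27), the endosomal receptor Tlr7 (-1.83 ± 0.35) and Fcer1g (-1.78 ± 0.36). The macrophage score of the tumours was -0.74 to -0.12 in the high-score class and -0.23 to 1.48 in the low-score class. It was highest in BMS754807 tumour 6 (1.48), control tumour 5 (1.26) and hydroxychloroquine tumour 4 (0.96), all 3 of the low-score class.

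The fibroblast and vessel lists held no call, while most of their members had negative differences. The lists do not hold every gene of these cells. Outside the lists, Selp (-1.80 ± 0.36), Cygb (-1.33 ± 0.26) and Sfrp1 (-1.56 ± 0.31) were called lower. These 3 were named after their values were seen. Of 24 measured fibroblast markers, all 24 had a negative difference and 12 were at an unadjusted p under 0.05, against 7.52% of all genes, with a median of -0.79. Cxcl12 was at 7.32 to 9.76 against 9.24 to 12.76 (-2.24 ± 0.58, limma adjusted p = 0.0991), and Col1a1 at 14.91 to 15.88 against 14.87 to 16.85 (-0.76 ± 0.28, limma adjusted p = 0.224). Of 17 endothelial markers, 16 were negative and 11 were at an unadjusted p under 0.05, with a median of -0.86. Pecam1 was at 9.65 to 10.66 against 9.98 to 12.38 (-1.10 ± 0.33, limma adjusted p = 0.146), and Eng, the endothelial TGF-beta co-receptor, differed by -1.21 ± 0.29 (limma adjusted p = 0.0832). The Pecam1 difference was -1.96 in controls, -1.49 under BMS754807, -1.06 under hydroxychloroquine and 0.04 in the combination. Of 12 pericyte and smooth muscle markers, 4 were at an unadjusted p under 0.05 (median -0.51), with Rgs5 at -1.42 ± 0.32 (limma adjusted p = 0.063). Both lists had their highest scores in the same 3 low-score tumours as the macrophage markers, with fibroblast scores of 1.42, 1.20 and 1.08 and endothelial scores of 1.00, 1.43 and 1.38 in hydroxychloroquine tumour 4, BMS754807 tumour 6 and control tumour 5. Fibroblast scores were -0.91 to 0.11 in the high-score class and -0.82 to 1.42 in the low-score class, and endothelial scores were -0.54 to 0.06 and -0.40 to 1.43.

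In the list of epithelial-mesenchymal transition factors and mesenchymal markers no gene was called. Cdh1 chose the tumours and was not tested, and Esrp1 and Ocln, called higher, stood in other lists. Of 17 measured, 12 had a negative and 5 a positive difference, and the median was -0.14. At an unadjusted p under 0.05, 2 were lower (Tgfbi and Sparc). Of all genes, 6.87% were higher and 7.52% lower at that threshold. Zeb1, a repressor of Cdh1 and Epcam, was at 12.46 to 12.87 against 12.47 to 13.10 (-0.19 ± 0.11, limma adjusted p = 0.432). Vim was at 17.05 to 17.25 against 17.09 to 17.46 (-0.17 ± 0.09, limma adjusted p = 0.407). Cdh2 differed by -0.33 ± 0.18 (limma adjusted p = 0.41), Snai2 by -0.45 ± 0.23 (limma adjusted p = 0.403) and Snai1 by -0.41. Vim and Sparc stood at a log2 signal above 16 in all 24 tumours. Of 17 TGF-beta pathway genes, 2 were higher and 5 lower at an unadjusted p under 0.05 with none called (median 0.13), the lower ones led by Tgfbr3 (-1.71 ± 0.43, limma adjusted p = 0.0923) and the higher by Smad7 (0.44 ± 0.15, limma adjusted p = 0.184).

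**Figure D4:**
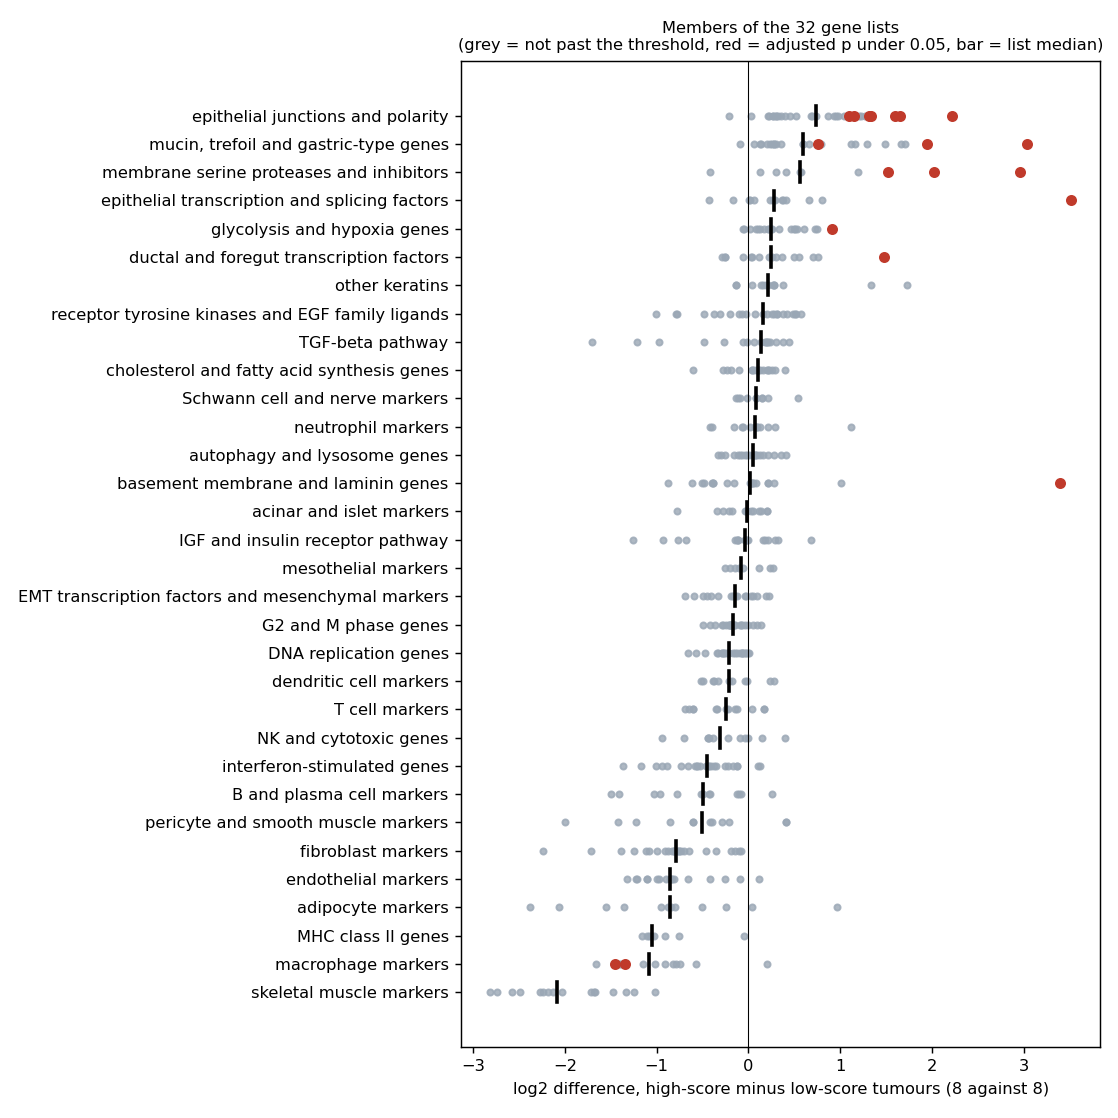
Difference of every measured member of the 32 gene lists between high-score and low-score tumours (horizontal axis, log2; lists on the vertical axis, ordered by median). Black bars mark list medians and red points genes with an adjusted p under 0.05; the junction list has a median of 0.73 and the macrophage list one of -1.08.

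No gene was called among 13 T cell (median -0.24), 13 B and plasma cell (-0.49), 12 NK and cytotoxic (-0.31), 11 dendritic cell (-0.21) and 13 neutrophil markers (0.07). Of these 5 lists, NK genes had 2 members and dendritic genes 1 member lower at an unadjusted p under 0.05, against 7.52% of all genes. High B cell scores came from 3 tumours. The B cell score was 3.36 in hydroxychloroquine tumour 1 and 2.15 in BMS754807 tumour 5, both of the low-score class, and 1.69 in combination tumour 4 of the high-score class, while the other 13 tumours of the comparison were below 0. Of 8 MHC class II genes, which present antigen to T cells, all 8 had a negative difference and 5 were at an unadjusted p under 0.05 (median -1.05), with H2-Aa at -1.16 ± 0.45 (limma adjusted p = 0.248). The MHC class II score was high in the same 3 tumours as the B cell score, where hydroxychloroquine tumour 1 had 1.91, BMS754807 tumour 5 had 1.43 and combination tumour 4 had 0.93. The part of B cells in the class II differences was not tested. Of 24 interferon-stimulated genes, 22 were negative and 9 were at an unadjusted p under 0.05 (median -0.45), led by Rtp4 (-1.17 ± 0.28, limma adjusted p = 0.085).

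Skeletal muscle transcripts marked part of the low-score class. The muscle score exceeded 2 in 4 of the 8 low-score tumours (hydroxychloroquine tumour 5 at 6.53, combination tumour 1 at 5.21, control tumour 5 at 3.59 and BMS754807 tumour 6 at 2.69), in none of the 8 high-score tumours (-2.06 to 0.73) and in BMS754807 tumour 2 (3.95) between the classes. All 16 measured muscle genes had a negative difference (median -2.08), yet none passed. At an unadjusted p under 0.05, 1 was lower, against 7.52% of all genes. Actn3 was at 5.17 to 6.45 against 5.60 to 13.66 (-2.81 ± 1.21, limma adjusted p = 0.301). Of 12 adipocyte genes none passed (median -0.86), and Fabp4 was spread from 9.01 to 14.26 and from 10.50 to 17.24. The part of muscle tissue in the calls above was not tested as a cause, but the fit was repeated without those 4 tumours. That fit held 12 tumours, called 0 genes, as stated above, and had no combination tumour left in the low-score class. Differences of the leading genes stayed near their size, at 2.66 for S100a14, 1.28 for Cgn, 3.95 for Esrp1, 3.08 for St14 and -2.0 for Ms4a6b, while C1qc was at -0.96. With the muscle score as a covariate over all 16 tumours, 43 genes were higher and 3 lower.

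**Figure D5:**
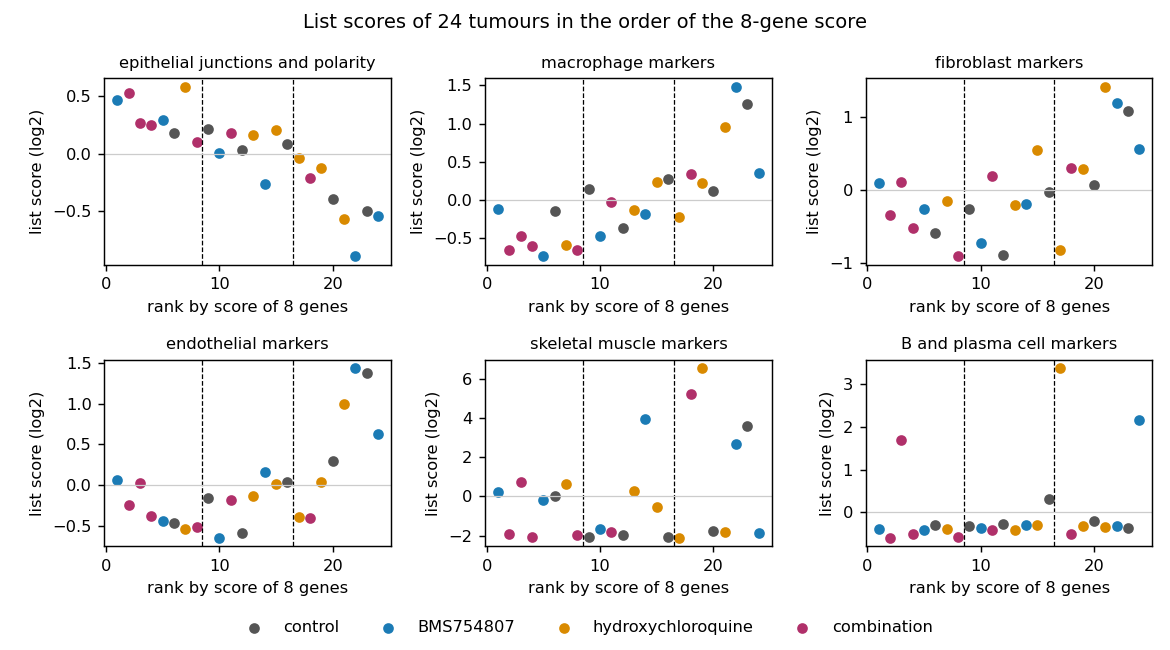
List scores (vertical axes, mean centred log2 over the list's measured genes) of the 24 tumours ordered by the 8-gene score (horizontal axes, 1 = highest; dashed lines bound the classes), coloured by treatment group. The junction score is 0.10 to 0.58 in the high-score class and -0.89 to -0.04 in the low-score class, whereas muscle and B cell scores are high in single tumours.

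Proliferation and the targets of the 2 agents showed no call. Of 23 G2 and M phase genes (median -0.17) and 23 DNA replication genes (median -0.21), 2 and 4 were lower at an unadjusted p under 0.05, and none was higher. The share of all genes lower at that threshold was 7.52%, so the first count is near the background. With the ranking on the 3 keratins, which rested on control tumours 1, 2 and 3 against 4 and 6, both medians were positive (0.21 and 0.08). Ccne1, the G1/S cyclin, came nearest (-0.66 ± 0.14, limma adjusted p = 0.0596), and Mki67 was at 14.65 to 15.55 against 14.69 to 15.51 (-0.08 ± 0.14, limma adjusted p = 0.848). Igf1r, a target of BMS754807, was at 11.40 to 12.08 against 11.01 to 11.74 (0.29 ± 0.14, limma adjusted p = 0.348), and Insr at 13.09 to 13.67 against 12.93 to 13.59 (-0.11 ± 0.12, limma adjusted p = 0.736). The ligand gene Igf1 was at 10.91 to 12.49 against 11.81 to 14.34 (-1.25 ± 0.37, limma adjusted p = 0.144). The IGF and insulin list had a median of -0.04 over 18 genes, the autophagy and lysosome list one of 0.05 over 21, and the autophagosome gene Map1lc3b a difference of 0.00 ± 0.12 (limma adjusted p = 0.994).

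The remaining lists also held no call. Of 23 receptor tyrosine kinases and EGF family ligands, 3 were higher (Ereg, Tgfa and Ddr1) and 3 lower (Ddr2, Hgf and Mertk) at an unadjusted p under 0.05 (median 0.16), against 6.87% and 7.52% of all genes. Cholesterol and fatty acid synthesis (19 genes, median 0.10), Schwann cell and nerve (10 genes, 0.08), mesothelial (8 genes, -0.08) and acinar and islet genes (15 genes, -0.01) had 0, 0, 0 and 2 members at an unadjusted p under 0.05. The acinar genes Ctrb1 and Ptf1a lay between 1.70 and 3.08 in the 24 tumours, near the low end of the arrays' scale.

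Many of the calls changed when 1 tumour was left out. With treatment group as a term, a group left in 1 class adds nothing to the difference. The fit without hydroxychloroquine tumour 3 thus also lost hydroxychloroquine tumours 1, 4 and 5 from the difference. The fits without control tumour 1 (control tumours 4 and 5) and without combination tumour 1 (combination tumours 2, 3, 4 and 6) did likewise. Those 3 fits therefore measure more than the weight of 1 tumour. Leaving out hydroxychloroquine tumour 3, the one high-score tumour of its treatment group, left 3 genes higher and 0 lower (limma; 1100 lower at an unadjusted p under 0.05), and S100a14 (3.13), Cgn and Tc2n were still higher. Without BMS754807 tumour 1 the counts were 19 and 1, without BMS754807 tumour 3 they were 22 and 3, without BMS754807 tumour 5 46 and 17, and without BMS754807 tumour 6 20 and 1. Without control tumour 1 they were 44 and 12, without control tumour 4 117 and 95, and without control tumour 5 40 and 6. Without hydroxychloroquine tumour 1 they were 135 and 132, without hydroxychloroquine tumour 4 they were 64 and 19, and without hydroxychloroquine tumour 5 53 and 17. Without combination tumours 1, 2, 3, 4 and 6 in turn, 59, 57, 25, 56 and 43 genes were higher and 14, 11, 2, 39 and 8 lower. In each of these 16 fits the 10 higher and 10 lower genes of smallest p kept their direction. These genes were chosen by p from the same tumours, so leaving out a single tumour could hardly turn a sign.

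Properties of the arrays moved with the classes as well. The SD of log2 signal over all genes of an array was 3.97 to 4.00 in the high-score class and 3.90 to 3.99 in the low-score class, and array medians were 6.79 to 6.95 and 6.84 to 7.03. With array SD as a covariate, 11 genes were higher and 1 lower. Array weights were also taken from a model of treatment group without class. A tumour unlike its group in composition can get a low weight there. The 3 lowest weights were those of BMS754807 tumour 6 (0.419), control tumour 5 (0.518) and hydroxychloroquine tumour 4 (0.593), the low-score tumours richest in stromal markers. Without these 3 arrays 21 genes were higher and 2 lower. The weights of the array-weight alternative below came from a model that also held class. When the score was used as a continuous term over all 24 tumours, 467 genes were higher with the score and 561 lower, and these held 70 of the 74 and 28 of the 29. Without the 5 muscle-rich tumours of the 24, that fit gave 101 and 38. The weights without class cannot tell array quality from tissue composition, and the part of either in these calls was not tested.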

How the data were processed

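RNA from 24 whole tumours had been labelled and hybridised to Clariom S arrays. The deposited table held 22206 probe sets without missing values, which the authors made with Transcriptome Analysis Console 4.0, per the submitters' processing notes. The deposited values were taken as log2 signal, since they ran from 1.45 to 19.0. The log base, background correction and normalization were not given in the sources used here. On arrays, precision is set by how many arrays there are. Symbols came from the platform annotation, which gave 1 symbol to 19572 probe sets, several to 0 and none to 2634. All 19572 gene identifiers matched a reference table of GRCm38.p6. The probe set with the highest mean was kept for each of 19505 genes, and 8 choosing genes were left untested.

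Tumours were ranked on the 8 genes, and groups were taken from the sample titles. The model for the 16 tumours held class and treatment group (lmFit, then eBayes, in limma 3.58.1 under R 4.3.3) and left 11 residual degrees of freedom. Tests were two-sided with Benjamini-Hochberg adjustment over 19497 genes and a threshold of 0.05, and ± is the SE of that fit. The script was tested on simulated data. The 8 genes, the rule and the 32 lists (531 measured members of 575) were chosen with earlier results of these data known, and lists were described by counts and medians without a test. Each list was scored per tumour by averaging its members' log2 values, every gene centred on its mean over 24 tumours. Named genes were the 10 smallest p in each direction, up to 4 members per list, and a fixed set of 12 (Zeb1, Vim, Cdh2, Sox9, Krt7, Muc1, Col1a1, Pecam1, Igf1r, Insr, Map1lc3b, Mki67). Others are said to be chosen after their values were seen, or are given as the exceptions and members of a list. Start-site windows and motif matches came from a RefSeq promoter table with pandas 2.3.3.

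Alternatives were no treatment term, classes of 6 or 12, the middle tumours as a class, a continuous score, rankings on other gene sets, quantile normalization, array weights, array SD or muscle score as covariate, a mean log2 value of at least 6, averaged probe sets, eBayes with trend and robust options, the replicate number as a block, and leaving out each tumour. Rankings on keratins or on the other 5 genes and the fits without muscle-rich tumours or low-weight arrays were added after seeing the data.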

Additional observations from a re-analysis of the deposited data

Results flagged for a closer look

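Of 384 checks of a class or treatment group for a tumour far from the rest, 23 found one, and chance alone finds about 1 in 20. Hydroxychloroquine tumour 1 stood apart among the low-score tumours with St14 at 7.24 (next 5.43), Igf1r at 11.01 (next 11.47), Trat1 at 3.31, Cd3e at 9.11 and a T cell score of 1.98 (next 0.61). Combination tumour 4 stood apart among the high-score tumours with a B cell score of 1.69 (next -0.29), Ms4a1 at 8.01 (next 2.85), Pax5 at 5.37, Tnfrsf13c at 6.41 and Ctrb1 at 3.08. Control tumour 1 had St14 at 6.68 (next 7.83) and Batf3 at 4.57. BMS754807 tumour 3 had Ms4a7 at 8.79 (next 9.36) and Ptf1a at 1.70, and BMS754807 tumour 1 had Cidea at 6.91. Combination tumour 2 had Tmprss4 at 6.62 (next 7.85), and combination tumour 6 had Acvrl1 at 6.88 and Mertk at 6.69. Hydroxychloroquine tumour 3 had Fasn at 12.18 and a score of the epithelial transcription and splicing factors of 0.54 (next 0.23). Among the low-score tumours, BMS754807 tumour 6 had Ly6c1 at 14.38 (next 12.37) and Rspo1 at 2.59, and hydroxychloroquine tumour 5 had Upk1b at 3.95.

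In 25 cases, each made of a gene and a pair of treatment groups, the classes separated in opposite directions. The high-score tumours all lay on one side of the low-score tumours in the first group and on the other in the second. Each group gives only 3 to 5 tumours to such a case, so full separation within it can easily arise by chance. None of these differences between groups was tested, and the count has no share over all genes beside it. The high minus low differences were 0.18 under BMS754807 and -0.18 under hydroxychloroquine for Krt8, 0.39 in controls and -0.15 in the combination for Krt19, and 0.26 in controls and -0.32 under BMS754807 for Map1lc3b. For Mki67 they were 0.18 under BMS754807 and -0.35 under hydroxychloroquine. Smad7 had -0.083 under hydroxychloroquine, against 0.46 in controls and 0.88 in the combination. Cd2 had 0.79 in the combination, against -0.32 in controls, -1.34 under BMS754807 and -1.75 under hydroxychloroquine, and Cd3e had 0.30 in controls and -2.03 under hydroxychloroquine. Car3 had 1.40 in controls and -3.85 in the combination, and Lep had 0.87 in the combination, against -0.46 in controls and -1.17 under hydroxychloroquine. Ctrb1 had 0.11 under BMS754807, against -0.14 in controls and -0.84 under hydroxychloroquine. S100b had -0.35 in the combination, against 1.67 in controls and 0.74 under BMS754807. Gpm6a had -0.25 in controls, against 0.58 under hydroxychloroquine and 0.97 in the combination. Among lipid synthesis genes, Cyp51 had 1.69 under BMS754807 and -0.62 under hydroxychloroquine, Fasn had 0.25 in controls, -0.84 under hydroxychloroquine and -0.37 in the combination, Srebf2 had 0.26 in controls, 0.29 under BMS754807 and -0.19 under hydroxychloroquine, and Scd1 had 0.88 in controls and -1.55 under hydroxychloroquine.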

How the results depend on the processing

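Against 74 genes higher and 29 lower in the comparison above, the counts were 186 and 213 without the treatment term, 16 and 1 with 6 tumours a class, 31 and 29 with 12, 221 and 178 with the middle 8 tumours as a class of their own, and 467 and 561 with a continuous score. They were 62 and 47 with tumours ranked on Epcam, Krt19 and Cldn3, 107 and 69 with array quality weights, 11 and 1 with array SD as covariate, 43 and 3 with the muscle score as covariate, 98 and 65 among genes with a mean of 6 or more, and 144 and 94 with trend and robust options. Quantile normalization gave 78 and 21, and averaged probe sets and a ranking without the keratins both gave 74 and 29. Ranking on Krt8, Krt18 and Krt19 gave 0 and 0 (limma; 383 and 543 at an unadjusted p under 0.05), the fit without 4 muscle-rich tumours 0 and 0, the continuous fit without 5 of them 101 and 38, and the fit without the 3 arrays of lowest weight 21 and 2. Leaving out 1 tumour at a time gave 3 to 135 higher and 0 to 132 lower. In some of these fits a treatment group stood in 1 class only and, with the treatment term, added nothing to the difference. Such were hydroxychloroquine and combination with 6 tumours a class, and combination without the 4 muscle-rich tumours or without combination tumour 1. The others were BMS754807, hydroxychloroquine and combination in the keratin ranking, control without control tumour 1, and hydroxychloroquine without hydroxychloroquine tumour 3. The cause of these shifts was not tested. Replicate numbers did not pair the tumours (36 same-number pairs, correlations of -0.251 to 0.305). With the replicate number as a random block, the counts were 75 and 31.

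Of 2961 values of the 158 named genes under 19 alternatives (18 for genes with a low mean), 2644 kept their direction and side of the threshold or, for the 8 choosing genes, moved by less than 1 SD. Another 171 lost a call, 84 gained one, 9 values of choosing genes moved further, and 53 values of tested genes changed sign. Among these 53 the only called gene was Esrp1. Krt19, which was not tested, also changed sign, from -0.02 to 0.091 with 6 tumours a class. With 6 tumours a class the signs turned for Lcn2 (-0.46), Ctrb1 (0.012), Gpm6a (-0.26), Fasn (0.028), Map1lc3b (-0.085) and Mki67 (0.083). Those differences came from control and BMS754807 tumours only. Mki67 was also at 0.010 without the treatment term, 0.045 with 12 a class and 0.014 when ranked on Epcam, Krt19 and Cldn3. Map1lc3b was at -0.0014 with the continuous score, -0.025 after quantile normalization, -0.0078 with array weights and -0.0007 with the replicate block. The keratin ranking, given next, rested on control tumours alone. With the keratin ranking the values were -0.28 for Esrp1, -0.02 for Muc4, 0.073 for Vim, 0.052 for Synpo2, 0.24 for S100a8, 0.12 for Eomes, 0.18 for Actn3, 0.515 for Tnni2, 0.78 for Mylpf, 0.25 for Ryr1, 0.16 for Chga, 0.005 for Amy2b, 0.090 for Ctrb1, -0.55 for Foxd3, -0.125 for Nefl, -0.083 for Ncam1, -0.055 for Gpm6a, 0.087 for Rspo1, 0.345 for Ube2c, 0.31 for Plk1, 0.0017 for Ttk, 0.16 for Rrm2, -0.083 for Cyp51, 0.018 for Fasn, -0.072 for Ereg and 0.27 for Mki67. Retnlg was at 0.021 with array SD as covariate. Without the 4 muscle-rich tumours Actn3 was at 0.26, Tnni2 at 0.45, Mylpf at 1.86 and Ryr1 at 0.78. In the continuous fit without 5 of them the values were 0.085 for Actn3, 0.40 for Tnni2, 1.27 for Mylpf, 0.46 for Ryr1, 0.42 for Car3, -0.051 for Foxd3 and 0.040 for Fasn. Without the 3 arrays of lowest weight Retnlg was at 0.12 and S100a8 at 0.33. Leaving out single tumours moved Map1lc3b from -0.063 to 0.053 and Mki67 from -0.13 to 0.0042. Genes near the low end of the array scale, such as Ctrb1 and Ptf1a, give little beyond background.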
